A study of Mus musculus with 18 samples.

Results

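This account follows 10 genes of the JAK-STAT pathway through the series: the receptor genes Ifnar1, Ifnar2 and Il6st, the kinase genes Jak1, Jak2 and Tyk2, the transcription factor gene Stat3, and the feedback genes Socs1, Socs2 and Socs3. They were chosen by symbol and for their role, with no measured value in the rule but with earlier results of these data known. All 10, taken from the 24421 genes of the count table, were among the 13507 genes with enough reads to be tested. 4T1 is a mammary carcinoma line from BALB/cfC3H mice, and 4T1R1 and 4T1R2 are 2 populations obtained from it by repeated exposure to 17-DMAG, a water-soluble inhibitor of the chaperone HSP90. Each of the 3 populations was sequenced untreated and after 17-DMAG, in 3 libraries per group, which makes 6 groups and 18 libraries. The sample records give a treatment of 1.5 µM for 48 h, and the design text of the series gives 2 h. For the selection the sample records give 3 rounds of 1.5 µM for 48 h, and the design text gives cycles of 1 µg/ml for 24 h. The resistant populations are selected pools of cells, each obtained once, so differences between a population and 4T1 describe that pool. The comparisons addressed what distinguished the resistant populations from 4T1 before treatment, and how each population changed under the inhibitor.

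Cytokines and interferons bind receptor chains that have no enzyme activity of their own. Janus kinases bound to these chains phosphorylate the receptors and then STAT proteins, which move to the nucleus and switch on target genes. The SOCS genes are among those targets, and their proteins block the kinases or mark the receptor complexes for degradation, which closes a negative feedback loop. IFNAR1 binds TYK2 and IFNAR2 binds JAK1, and together the chains form the receptor for type I interferons. The Il6st product, gp130, is the shared signalling chain for interleukin 6 and its relatives and acts mainly through STAT3. Many kinases, Janus kinases among them, need HSP90 to fold. The libraries measured RNA, so none of the values below is a protein level or a signalling activity.

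Libraries held 23354461 to 55094630 counts, of which the ribosomal RNA precursor Rn45s took 9.54 to 15.6%. Even numbers made up 65.6 to 70.8% of the counts from 1 to 12, as would follow if both reads of a fragment were often counted, so a count may stand for less than a fragment. The libraries of replicates 1 and 2 of treated 4T1 had a chi-square per gene of 1.1, against 2.04 to 2.22 for the other 17 pairs of libraries within a group, and were averaged as 1 sample, so this group has n = 2 and the others n = 3. Names of the 4T1R1 libraries come from a different number series than those of 4T1 and 4T1R2, so what separates 4T1R1 from 4T1 cannot be told apart from what separates these series, whereas 4T1R2 and 4T1 share a series. Each of the 8 epithelial marker genes was above 3 counts in at least 1 library. Against untreated 4T1, by the edgeR test described below, 1 of the 8 was higher and 6 lower in untreated 4T1R1, and 2 higher and 5 lower in untreated 4T1R2. Among all genes, 25.2% were higher and 27.5% lower in 4T1R1, and 25.6% and 26.9% in 4T1R2. The summed level of the 8 markers was 76542 to 77663 normalized counts in untreated 4T1, 51407 to 53949 in untreated 4T1R1 and 59714 to 60891 in untreated 4T1R2. Markers of leukocytes (summed level 146 to 267, with Cd3e at or under 3 counts) and of fibroblasts and endothelium (404 to 1043, with Col3a1, Dcn, Lum and Kdr at or under 3 counts) were far below these sums. The fibroblast and endothelial sum was 693 to 780.4 in untreated and 404 to 423 in treated 4T1, 854 to 901 and 712 to 789.7 in 4T1R1, and 922 to 1043 and 798 to 910.2 in 4T1R2. The part of these marker differences in the results below was not tested, and in bulk RNA fewer cells with a transcript cannot be told apart from less of it per cell.

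The members differed widely in abundance. In RPKM, counts scaled for exon length and library size, Jak2 stood highest in untreated 4T1 at 34.4 ± 1.66 (SD, n = 3), followed by Jak1 at 18.4 ± 0.210, Il6st at 14.6 ± 0.780, Ifnar1 at 10.9 ± 0.275 and Stat3 at 8.35 ± 0.223. Ifnar2 at 6.50 ± 0.306 and Socs3 at 6.23 ± 0.518 overlapped, as did Socs1 at 2.75 ± 0.163 and Tyk2 at 2.68 ± 0.349, and Socs2 was lowest at 0.515 ± 0.127. In 4T1R1 and 4T1R2 Ifnar2 took place 4, above Ifnar1, with 14.1 ± 0.480 and 13.0 ± 0.0636 RPKM. These places depend on the transcript length: with the principal transcript in place of all exons, Ifnar2 stayed in place 6 in all 6 groups, and 4 to 6 of the 10 members changed place. Levels between genes are therefore a rough order only, and every comparison below is of a gene with itself, in counts scaled to a common library size (normalized counts). On this scale a member had between 108 (Socs2) and 7370 (Il6st) normalized counts in a library.

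**Figure D1:**
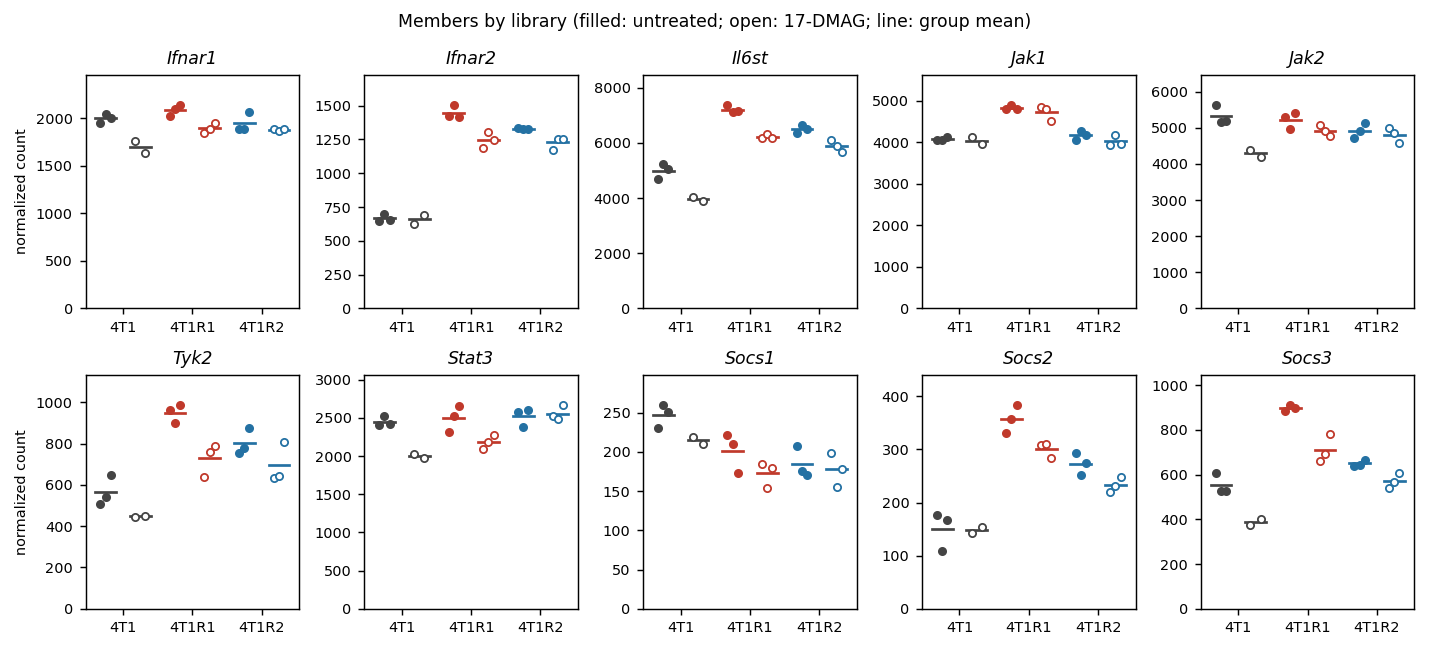
Normalized counts of the 10 genes in each of the 17 libraries, with 1 panel per gene, a vertical axis from 0, and the populations on the horizontal axis (filled points untreated, open points 17-DMAG, lines group means). All resistant libraries of Ifnar2 lie above all 4T1 libraries, while those of Ifnar1 and Stat3 overlap between the untreated populations.

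Untreated 4T1R1 had 6 of the 10 members higher than untreated 4T1 (Ifnar2, Il6st, Jak1, Tyk2, Socs2 and Socs3) and 1 lower (Socs1), at an adjusted p under 0.05 by edgeR's quasi-likelihood test with Benjamini-Hochberg adjustment over all genes. Of all genes tested, 25.2% were called higher and 27.5% lower in that comparison. In untreated 4T1R2, 5 members were higher (Ifnar2, Il6st, Tyk2, Socs2 and Socs3) and 2 lower (Socs1 and Jak2), against 25.6% and 26.9% of all genes. The median log2 difference of the members was 0.39 in 4T1R1 and 0.14 in 4T1R2, beside 0.0075 and 0.0068 over all genes. Both comparisons use the same untreated 4T1 libraries.

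**Figure D2:**
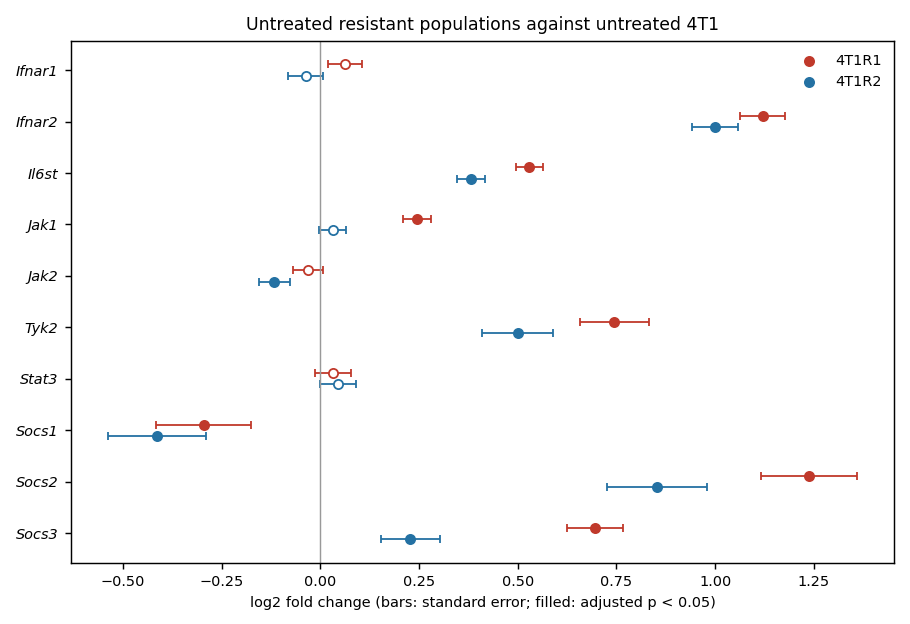
Log2 fold change of each gene in untreated 4T1R1 and 4T1R2 against untreated 4T1 on the horizontal axis, with standard errors as bars and filled points for an adjusted p under 0.05. Ifnar2 and Socs2 lie farthest to the right in both populations and Socs1 to the left, and each of the 5 genes called higher in both has the smaller value in 4T1R2.

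The receptor genes for type I interferon did not move together. Ifnar2 (ENSMUSG00000022971.18), on chromosome 16 at 91372783 to 91405589 of GRCm38, encodes the chain that binds interferon with high affinity. Its untreated 4T1 libraries held 646, 702 and 650 normalized counts, those of 4T1R1 1425, 1504 and 1414, and those of 4T1R2 1337, 1325 and 1329. The resistant libraries were thus all above 4T1 with a wide gap. The difference was 2.17-fold in 4T1R1 (log2 1.12, SE 0.058, adjusted p = 6.4e-20) and 2.00-fold in 4T1R2 (log2 1.00, SE 0.059, adjusted p = 4.24e-18). Ifnar1, which encodes the other chain, had 1946, 2046 and 2005 normalized counts in 4T1, 2025, 2097 and 2139 in 4T1R1, and 1889, 1891 and 2063 in 4T1R2. These groups overlapped, and the log2 difference was 0.063 (SE 0.044, adjusted p = 0.239) in 4T1R1 and −0.037 (SE 0.045, adjusted p = 0.509) in 4T1R2.

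Within a library, the count of Ifnar2 divided by that of Ifnar1 needs no scaling between libraries. Untreated 4T1 had a ratio of 0.333 ± 0.00944 (SD, n = 3), against 0.694 ± 0.0294 for untreated 4T1R1 and 0.684 ± 0.0350 for untreated 4T1R2. After 17-DMAG it was 0.389 ± 0.0493 (n = 2), 0.657 ± 0.0310 and 0.653 ± 0.0265 (n = 3 each). Every resistant library, treated or not, was at 0.622 or above, and every 4T1 library was at 0.424 or below.

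**Figure D3:**
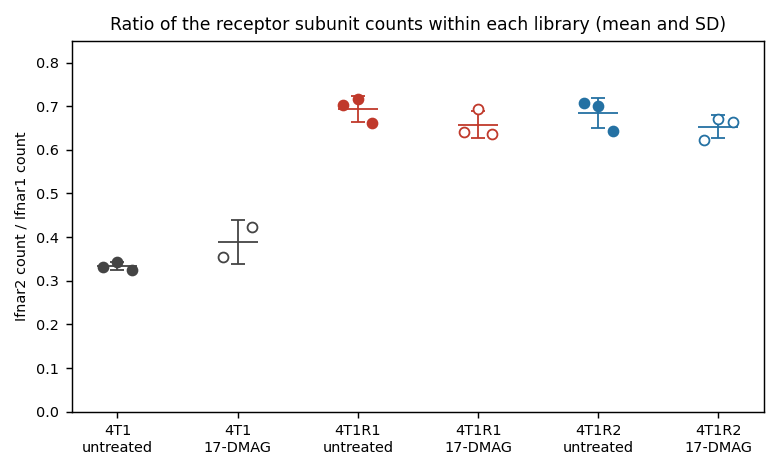
Count of Ifnar2 divided by the count of Ifnar1 in each library (vertical axis from 0) for the 6 groups on the horizontal axis, with means and SDs. The 5 libraries of 4T1 lie between 0.324 and 0.424 and the 12 resistant libraries between 0.622 and 0.717.

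The interferon receptor genes are neighbours on mouse chromosome 16, in the order Ifnar2, Il10rb, Ifnar1 and Ifngr2, all on the plus strand within 192.841 kb. Il10rb, the shared chain of interleukin 10 family receptors, and Ifngr2, a chain of the interferon gamma receptor, were looked at for this position after their values were seen. Il10rb was higher by log2 0.87 (SE 0.091, adjusted p = 1.06e-10) in 4T1R1 and 0.33 (SE 0.096, adjusted p = 0.00339) in 4T1R2. Ifngr2 was higher by 0.71 (SE 0.055, adjusted p = 2.16e-14) and 0.77 (SE 0.055, adjusted p = 1.75e-15). Of the 4 neighbours, Ifnar1 was thus the gene for which no difference was called in either population. Ifnar2 shares 315 exon bases (9.46%) with Gm21970 on the same strand, a gene that has no row in the table, and reads there cannot be assigned between them.

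The promoters of Ifnar2, called higher in both resistant populations, and of Ifnar1, called in neither, are shown side by side. Each is given as 250 bases before and 50 after the start from RefSeq (GRCm38.p6), on the plus strand. Matches to the STAT motif TTCNNNGAA are in capitals. Ifnar2 lies at chr16:91372533-91372832 and Ifnar1 at chr16:91484965-91485264.
Ifnar2: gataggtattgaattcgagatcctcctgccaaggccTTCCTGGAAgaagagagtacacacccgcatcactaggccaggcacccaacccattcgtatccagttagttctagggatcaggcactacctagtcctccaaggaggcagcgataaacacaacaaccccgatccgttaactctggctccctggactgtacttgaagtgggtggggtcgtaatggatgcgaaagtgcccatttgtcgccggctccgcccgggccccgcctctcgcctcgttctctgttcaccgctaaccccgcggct
Ifnar1: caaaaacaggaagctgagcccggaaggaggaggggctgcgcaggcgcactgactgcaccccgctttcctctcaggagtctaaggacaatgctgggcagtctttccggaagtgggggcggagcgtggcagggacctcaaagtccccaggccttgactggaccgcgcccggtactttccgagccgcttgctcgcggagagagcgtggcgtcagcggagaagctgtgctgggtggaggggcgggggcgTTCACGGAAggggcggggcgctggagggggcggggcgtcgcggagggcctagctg
Each held 1 match, beginning at base −214 of Ifnar2 and −5 of Ifnar1 relative to the start. The motif reads the same on both strands, and 8.3% of 32851 mouse promoters of this length held it. Both genes thus hold a match, and a match describes letters and not binding.

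Il6st, the gp130 gene on chromosome 13, was higher in both resistant populations. It had 4700, 5218 and 5066 normalized counts in untreated 4T1, 7370, 7107 and 7146 in 4T1R1, and 6357, 6660 and 6510 in 4T1R2. The populations did not overlap, with 4T1R2 between 4T1 and 4T1R1. The log2 difference from 4T1 was 0.53 (SE 0.034, adjusted p = 1.08e-16) in 4T1R1 and 0.38 (SE 0.035, adjusted p = 2.22e-12) in 4T1R2. The chains that pair with gp130 were looked at for this role, after their values were seen. Osmr, the oncostatin M chain, was higher by log2 1.08 (SE 0.11, adjusted p = 1.09e-10) and 0.50 (SE 0.12, adjusted p = 0.000572), while for Il6ra, the interleukin 6 chain, the values were 0.14 (SE 0.061, adjusted p = 0.0557) and −0.081 (SE 0.062, adjusted p = 0.29). Without replicate 2 of untreated 4T1R1 the 4T1R1 value of Il6ra was 0.18 (adjusted p = 0.0216). Lifr, the leukemia inhibitory factor chain, had 6.18, 2.12 and 3.88 normalized counts in untreated 4T1, 39.7, 31.1 and 35.1 in 4T1R1, and 3.81, 3.89 and 4.65 in 4T1R2. It was higher in 4T1R1 by log2 3.08 (SE 0.52, adjusted p = 2.98e-06) and gave 0.011 (SE 0.75, adjusted p = 0.992) in 4T1R2, both from low counts.

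The Janus kinase genes gave 3 different patterns. Tyk2, whose product binds IFNAR1, had 509, 542 and 649 normalized counts in untreated 4T1, 965, 900 and 986 in 4T1R1, and 754, 778 and 878 in 4T1R2, with no overlap between 4T1 and either resistant population. It was 1.68-fold higher in 4T1R1 (log2 0.74, SE 0.087, adjusted p = 1.58e-09) and 1.41-fold higher in 4T1R2 (log2 0.50, SE 0.089, adjusted p = 8.59e-06). An antisense gene, 1700084C06Rik, shares 554 of its exon bases (8.07%), and the strand setting of the counting is not given in the sources used here.

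Jak1, the kinase gene shared by IFNAR2 and gp130 signalling, was higher in 4T1R1 by 1.18-fold. Its counts were 4062, 4054 and 4139 in untreated 4T1, 4810, 4901 and 4813 in 4T1R1, and 4070, 4274 and 4188 in 4T1R2. The 4T1R1 libraries stood above the rest, and those of 4T1R2 overlapped 4T1. The log2 difference was 0.24 (SE 0.035, adjusted p = 1.03e-07) in 4T1R1 and 0.031 (SE 0.035, adjusted p = 0.48) in 4T1R2, and the direct comparison of 4T1R2 with 4T1R1 gave −0.21 (SE 0.035, adjusted p = 3.23e-06). Since 4T1R1 alone carries the separate library number series, this difference cannot be told apart from it.

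Jak2, which serves receptors for growth hormone, erythropoietin and interferon gamma among others, had 5627, 5172 and 5193 normalized counts in untreated 4T1, 5289, 4952 and 5407 in 4T1R1, and 4721, 4919 and 5119 in 4T1R2. The 4T1R2 libraries were all below 4T1, by log2 −0.12 (SE 0.039, adjusted p = 0.0119), and those of 4T1R1 overlapped it (−0.031, SE 0.039, adjusted p = 0.529). Without replicate 1 of untreated 4T1 the 4T1R2 value was −0.076 (adjusted p = 0.129), and without replicate 1 of untreated 4T1R2 it was −0.086 (adjusted p = 0.103), so this call rested on those libraries.

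Stat3, on chromosome 11, had 2404, 2524 and 2418 normalized counts in untreated 4T1, 2321, 2524 and 2660 in 4T1R1, and 2575, 2386 and 2605 in 4T1R2. The groups overlapped, and the log2 difference was 0.032 (SE 0.046, adjusted p = 0.587) and 0.044 (SE 0.046, adjusted p = 0.441). Stat3 shares 72 exon bases (0.756%) with Stat5a on the other strand. Of the list of other STATs, Jak3 and Irf9, 7 of 8 genes were tested. Of these, 4 were higher and 0 lower in 4T1R1, and 5 higher and 2 lower in 4T1R2. Among all genes, 25.2% were higher and 27.5% lower in 4T1R1, and 25.6% and 26.9% in 4T1R2. Stat2 and Irf9, whose products act downstream of the type I interferon receptor, were looked at for that role after their values were seen. Stat2 was higher by log2 0.69 (SE 0.075, adjusted p = 2.41e-10) in 4T1R1 and 0.94 (SE 0.075, adjusted p = 5.29e-14) in 4T1R2, and Irf9 by 0.63 (SE 0.079, adjusted p = 7.08e-09) and 0.90 (SE 0.079, adjusted p = 8.16e-13).

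The 3 SOCS members went in different directions. Socs2, a regulator of growth hormone signalling on chromosome 10, had 177, 108 and 168 normalized counts in untreated 4T1, 331, 358 and 383 in 4T1R1, and 293, 251.5 and 274 in 4T1R2. Neither resistant population overlapped 4T1. The increase was 2.36-fold in 4T1R1 (log2 1.24, SE 0.12, adjusted p = 1.8e-11) and 1.81-fold in 4T1R2 (log2 0.85, SE 0.13, adjusted p = 2.76e-07). The lowest 4T1 library, replicate 2, held 102 counts of this gene, and leaving out any library left the log2 difference at 1.05 to 1.36 and 0.67 to 0.98.

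Socs3, the main feedback inhibitor of gp130 signalling, had 607, 528 and 527 normalized counts in untreated 4T1, 885, 909 and 897 in 4T1R1, and 640, 644 and 664 in 4T1R2. The groups did not overlap, but 4T1R2 lay close to the highest 4T1 library. The difference was 1.62-fold in 4T1R1 (log2 0.69, SE 0.071, adjusted p = 6.05e-11) and 1.17-fold in 4T1R2 (log2 0.23, SE 0.074, adjusted p = 0.00914). The 4T1R2 value was 0.19 with an adjusted p of 0.0542 when replicate 3 of untreated 4T1 was left out.

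Socs1, an inhibitor of interferon receptor kinases, had 231, 259 and 250 normalized counts in untreated 4T1, 222, 209 and 173 in 4T1R1, and 207, 175 and 171 in 4T1R2. All resistant libraries were below all 4T1 libraries. The log2 difference was −0.30 (SE 0.12, adjusted p = 0.0376) in 4T1R1 and −0.41 (SE 0.12, adjusted p = 0.00481) in 4T1R2. The 4T1R1 call was lost without replicate 2 of 4T1 (−0.26, adjusted p = 0.114), without replicate 3 of 4T1 (−0.28, adjusted p = 0.0854), without replicate 3 of 4T1R1 (−0.19, adjusted p = 0.232), with scaling by total counts (−0.27, adjusted p = 0.0608), and in a fit of the compared groups alone (−0.29, adjusted p = 0.0513). The 4T1R2 call held in every alternative run. Untreated 4T1 held 2.26 ± 0.326 counts of Socs3 per count of Socs1 (SD, n = 3), against 4.51 ± 0.621 for 4T1R1 and 3.55 ± 0.412 for 4T1R2.

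The promoters of Socs1 and Socs3 are shown because these feedback genes differed in direction, both from RefSeq (GRCm38.p6) on the minus strand, at chr16:10785487-10785786 and chr11:117969317-117969616. Capitals mark the STAT motif in Socs3 and, in Socs1, a pair of overlapping matches to GAAANNGAA, the core of the interferon-stimulated response element.
Socs1: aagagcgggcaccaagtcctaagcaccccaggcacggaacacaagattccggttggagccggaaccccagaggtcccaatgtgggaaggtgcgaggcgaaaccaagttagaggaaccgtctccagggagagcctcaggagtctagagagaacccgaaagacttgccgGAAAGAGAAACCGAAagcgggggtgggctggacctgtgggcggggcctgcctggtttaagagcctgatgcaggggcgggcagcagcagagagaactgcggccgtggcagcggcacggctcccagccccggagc
Socs3: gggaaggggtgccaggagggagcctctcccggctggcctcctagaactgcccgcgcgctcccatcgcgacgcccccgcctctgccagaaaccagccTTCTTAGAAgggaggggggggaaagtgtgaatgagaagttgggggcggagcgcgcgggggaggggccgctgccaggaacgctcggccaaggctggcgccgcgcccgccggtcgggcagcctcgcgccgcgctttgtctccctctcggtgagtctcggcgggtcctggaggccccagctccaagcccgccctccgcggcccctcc
The Socs1 matches began at bases −83 and −77, and the Socs3 match at −154. The GENCODE annotation places Socs3 at chr11:117966079-117970047, so its RefSeq window lies wholly inside the gene as annotated there. The Socs3 match is therefore upstream of the RefSeq start only. Searched on both strands, GAAANNGAA was held by 8.56% of all promoters. Of the 9 members with a promoter in the table, 3 held the STAT motif (Ifnar1, Ifnar2 and, in the window inside the gene, Socs3) and 1 GAAANNGAA (Socs1). The heat shock element core GAANNTTC, held by 7.86% of promoters, was in Il6st, beginning at base −228, and GGGNNTTTC, a form of the NF-kappaB site held by 4.36%, was in none. Socs2 was not matched.

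The other SOCS genes were looked at for their family after their values were seen. Socs6 was lower by log2 −0.16 (SE 0.043, adjusted p = 0.00189) in 4T1R1 and −0.14 (SE 0.044, adjusted p = 0.00791) in 4T1R2, and Socs5 gave −0.062 (SE 0.041, adjusted p = 0.208, and −0.10 with 0.0493 without replicate 3 of 4T1R1) and −0.21 (SE 0.042, adjusted p = 2.98e-05). Socs7 was higher in 4T1R1, by 0.18 (SE 0.050, adjusted p = 0.00258), and gave −0.0022 (SE 0.052, adjusted p = 0.977) in 4T1R2. Socs4 gave −0.012 (SE 0.055, adjusted p = 0.872) in 4T1R1 and was higher in 4T1R2, by 0.17 (SE 0.056, adjusted p = 0.00982), a call lost without untreated replicate 3 of 4T1R2 (0.14, adjusted p = 0.063). Cish, a STAT5 target that also inhibits STAT5, gave 0.23 (SE 0.23, adjusted p = 0.428) and 0.11 (SE 0.24, adjusted p = 0.723). Usp18, which blocks signalling at IFNAR2, differed most of the inhibitors named here, from 36.0, 43.5 and 30.05 normalized counts in 4T1 to 287, 241 and 238 in 4T1R1 and 254, 248 and 257 in 4T1R2 (log2 2.81, SE 0.15, adjusted p = 9.78e-20, and 2.79, SE 0.15, adjusted p = 1.82e-19). Over the list of 20 other negative regulators, 3 were higher and 8 lower in 4T1R1, and 5 higher and 8 lower in 4T1R2. Among all genes, 25.2% were higher and 27.5% lower in 4T1R1, and 25.6% and 26.9% in 4T1R2.

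Compared directly, 4T1R2 had 0 members higher and 5 lower than 4T1R1 (Socs2, Socs3, Il6st, Jak1 and Tyk2), against 19.7% and 19% of all genes. The median log2 difference of the members was −0.13, beside −0.0079 over all genes. Socs3 was lower by −0.47 (SE 0.071, adjusted p = 9.72e-07), Socs2 by −0.38 (SE 0.11, adjusted p = 0.00624), Tyk2 by −0.24 (SE 0.085, adjusted p = 0.0196) and Il6st by −0.15 (SE 0.034, adjusted p = 0.000535). Ifnar2 gave −0.12 (SE 0.054, adjusted p = 0.0754) and Stat3 0.013 (SE 0.046, adjusted p = 0.86). The Tyk2 call was lost without replicate 1 (−0.23, adjusted p = 0.054) or 3 (−0.22, adjusted p = 0.0705) of 4T1R1 and without replicate 1 (−0.20, adjusted p = 0.114) or 2 (−0.22, adjusted p = 0.07) of 4T1R2. These populations also differ in library number series.

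Under 17-DMAG, 6 members fell in 4T1 (Socs3, Stat3, Il6st, Jak2, Tyk2 and Ifnar1) and 0 rose, against 17.9% of all genes lower and 18.4% higher. In 4T1R1, 6 fell (Socs3, Stat3, Il6st, Tyk2, Ifnar1 and Ifnar2) and 0 rose, against 14.3% and 13.9%. In 4T1R2, 1 fell (Il6st) and 0 rose, against 4.35% and 6.18%. The members had a median log2 response of −0.26 for 4T1, −0.21 for 4T1R1 and −0.090 for 4T1R2, beside 0.00064, −0.0086 and −0.0019 over all genes. Scaling by total counts alone put the median of all genes at −0.114 in 4T1, so responses there are relative to the bulk of genes. Without replicate 3 of treated 4T1R2, 2 members fell in 4T1R2, where 1360 of 13476 genes were called in place of 1423 of 13507.

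**Figure D4:**
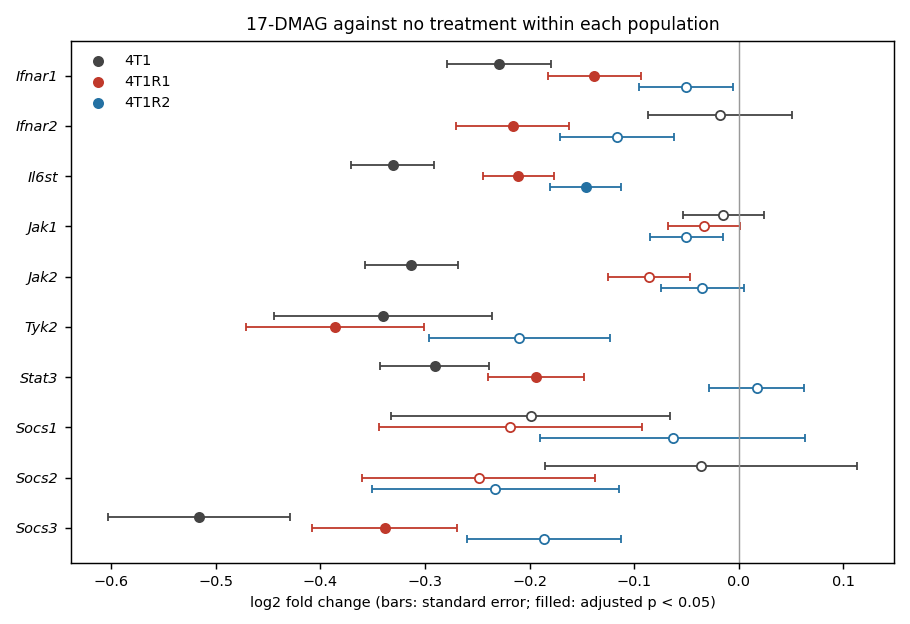
Log2 fold change under 17-DMAG within 4T1, 4T1R1 and 4T1R2 for each gene on the horizontal axis, with standard errors as bars and filled points for an adjusted p under 0.05. For Socs3, Stat3, Il6st, Jak2 and Ifnar1 the values of 4T1 lie farthest below 0 and those of 4T1R2 nearest to it, and for Jak1 all 3 populations lie near 0.

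Among the receptors, Il6st was the member that fell in all 3 populations. Treated libraries had 4034 and 3904 normalized counts in 4T1, 6185, 6312 and 6189 in 4T1R1, and 6086, 5889 and 5657 in 4T1R2, in each case below every untreated library of the same population. The log2 response was −0.33 (SE 0.040, adjusted p = 5.66e-09), −0.21 (SE 0.034, adjusted p = 6.47e-06) and −0.15 (SE 0.034, adjusted p = 0.00305). Treated resistant libraries still lay above all untreated 4T1 libraries of this gene. The response differed between 4T1R2 and 4T1 by 0.18 (SE 0.052, adjusted p = 0.00997), and without replicate 3 of treated 4T1 this was 0.17 with an adjusted p of 0.0689.

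Ifnar1 had 1765 and 1639 normalized counts in treated 4T1, 1850, 1889 and 1953 in treated 4T1R1, and 1885, 1868 and 1890 in treated 4T1R2. Treated and untreated libraries overlapped in 4T1R2 and not in 4T1 or 4T1R1. The response was −0.23 (SE 0.050, adjusted p = 0.000282) in 4T1, −0.14 (SE 0.044, adjusted p = 0.0164) in 4T1R1 and −0.050 (SE 0.045, adjusted p = 0.55) in 4T1R2. In 4T1R1 the call was lost without untreated replicate 3 (−0.12, adjusted p = 0.069), without treated replicate 1 (−0.12, adjusted p = 0.0831) and with scaling by total counts (−0.10, adjusted p = 0.0875). Scaling by total counts made the 4T1 response −0.35.

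Ifnar2 went from the untreated values above to 625 and 695 normalized counts in 4T1, 1186, 1308 and 1244 in 4T1R1, and 1173, 1254 and 1254 in 4T1R2. Its response was −0.018 (SE 0.069, adjusted p = 0.873) in 4T1, −0.22 (SE 0.054, adjusted p = 0.00218) in 4T1R1 and −0.12 (SE 0.055, adjusted p = 0.189) in 4T1R2. The lowest treated resistant library, at 1173, was still well above the highest 4T1 library, at 702. The difference in response from 4T1 was −0.20 (SE 0.088, adjusted p = 0.118) for 4T1R1 and −0.098 (SE 0.088, adjusted p = 0.51) for 4T1R2.

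Of the kinases, Jak2 fell in 4T1, from 5172 to 5627 normalized counts to 4388 and 4188 (log2 −0.31, SE 0.044, adjusted p = 2.02e-07). In treated 4T1R1 it had 5066, 4912 and 4764 (−0.086, SE 0.039, adjusted p = 0.098) and in treated 4T1R2 4984, 4843 and 4571 (−0.035, SE 0.039, adjusted p = 0.656), both overlapping the untreated libraries. The difference in response from 4T1 was 0.23 (SE 0.059, adjusted p = 0.00453) for 4T1R1 and 0.28 (SE 0.059, adjusted p = 0.000515) for 4T1R2. The 4T1R1 difference was 0.20 with an adjusted p of 0.0566 without replicate 3 of treated 4T1, 0.38 with scaling by total counts, and the response within 4T1R1 was −0.12 with an adjusted p of 0.0211 without untreated replicate 2.

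Tyk2 fell to 447 and 450 normalized counts in 4T1 (log2 −0.34, SE 0.10, adjusted p = 0.00862) and to 637, 761 and 789 in 4T1R1 (−0.39, SE 0.085, adjusted p = 0.000522). In 4T1R2 it had 634, 642 and 808, where the highest library overlapped the untreated ones (−0.21, SE 0.087, adjusted p = 0.123), and without that library, replicate 3, the response was −0.33 (adjusted p = 0.0112). The 4T1 call was lost without untreated replicate 3 (−0.23, adjusted p = 0.109) or without the averaged treated library (−0.33, adjusted p = 0.0709). Jak1 ranged from 3934 to 4186 in treated 4T1 and 4T1R2 and from 4526 to 4851 in treated 4T1R1, and its response was −0.015 (SE 0.039), −0.033 (SE 0.034) and −0.050 (SE 0.035), with adjusted p from 0.415 to 0.812. Scaling by total counts made the 4T1 value −0.13 (adjusted p = 0.0115), near the shift of all genes under that scaling.

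Stat3 fell to 2027 and 1973 normalized counts in 4T1 (log2 −0.29, SE 0.052, adjusted p = 1.49e-05) and to 2098, 2190 and 2277 in 4T1R1 (−0.19, SE 0.046, adjusted p = 0.00121). In 4T1R2 it had 2523, 2479 and 2665, among the untreated values (0.017, SE 0.046, adjusted p = 0.87). The response of 4T1R2 differed from that of 4T1 by 0.31 (SE 0.069, adjusted p = 0.000995), and that of 4T1R1 by 0.097 (SE 0.069, adjusted p = 0.383). After treatment the populations, which overlapped before it, were ordered 4T1, 4T1R1 and 4T1R2 with no overlap between them.

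Socs3 had the largest fall of the members in 4T1, to 374 and 403 normalized counts (log2 −0.52, SE 0.087, adjusted p = 5.63e-06). In 4T1R1 it fell to 660, 691 and 780 (−0.34, SE 0.070, adjusted p = 0.000232), and in 4T1R2 it had 540, 567 and 605 (−0.19, SE 0.073, adjusted p = 0.101), below the untreated libraries but short of the threshold. The response of 4T1R2 differed from that of 4T1 by 0.33 (SE 0.11, adjusted p = 0.0374). That call was lost without untreated 4T1 replicate 1 (0.26, adjusted p = 0.133), without the averaged treated 4T1 library (0.27, adjusted p = 0.196), and without any of 4 libraries of 4T1R2: untreated replicate 1 (0.32, adjusted p = 0.0697), untreated replicate 2 (0.33, adjusted p = 0.0606), treated replicate 2 (0.33, adjusted p = 0.0532) or treated replicate 3 (0.29, adjusted p = 0.095).

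Socs1 and Socs2 gave no called response. Socs1 had 210.4 to 219 normalized counts in treated 4T1, 154 to 185 in treated 4T1R1 and 155 to 199 in treated 4T1R2, with log2 responses of −0.20 (SE 0.13), −0.22 (SE 0.13) and −0.063 (SE 0.13) and adjusted p of 0.264, 0.206 and 0.828. Socs2 had 142 to 155, 284 to 310 and 220 to 248, with responses of −0.036 (SE 0.15), −0.25 (SE 0.11) and −0.23 (SE 0.12) and adjusted p of 0.884, 0.0934 and 0.231. The standard errors of Socs1 and Socs2, at 0.11 to 0.15, were above those of Stat3, at 0.046 to 0.052, so smaller responses were detectable for Stat3.

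For the difference in response from 4T1, 1 member (Jak2) was called higher and 0 lower in 4T1R1, against 9.16% and 9.08% of all genes, and 4 (Socs3, Stat3, Il6st and Jak2) were called higher and 0 lower in 4T1R2, against 9.62% and 8.16%. The median over the members was 0.036 and 0.16, beside −0.0030 and −0.0011 over all genes. Both differences share the 4T1 libraries, of which the treated group has n = 2. Without replicate 1 of untreated 4T1, 2 members were called in 4T1R1, where 2103 of 13493 genes were called in place of 2464 of 13507. Without replicate 3 of treated 4T1, which leaves a lone library in that group, the Jak2 difference in 4T1R1 was 0.20. Ifnar1 in 4T1R2 gave 0.18 (SE 0.067, adjusted p = 0.059) and passed the threshold in 7 alternatives, with DESeq2 (adjusted p = 0.0463) and without untreated 4T1R2 replicate 3 (0.23, adjusted p = 0.0173) among them.

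The rest of the pathway was described by lists drawn up for their roles, with earlier results of these data known. Their counts are therefore a description. All 20 interferon-stimulated genes of the list were higher in both untreated resistant populations, with median log2 differences of 1.48 and 1.71. Among all genes, 25.2% were higher in 4T1R1 and 25.6% in 4T1R2, with medians of 0.0075 and 0.0068. Mx2, an antiviral GTPase, was higher by log2 3.29 (SE 0.23, adjusted p = 7.73e-16) in 4T1R1 and 3.56 (SE 0.23, adjusted p = 4.55e-17) in 4T1R2, Gbp2 by 3.04 (SE 0.12, adjusted p = 1.16e-23) in 4T1R1, and Rsad2, which encodes viperin, by 3.11 (SE 0.13, adjusted p = 1.01e-22) in 4T1R2. Under 17-DMAG, 12 of these genes rose and 2 fell in 4T1, where 6 of the 10 members fell. Rsad2 rose 5.20-fold (log2 2.38, SE 0.15, adjusted p = 7.34e-17) and Ifit1 4.02-fold (log2 2.01, SE 0.14, adjusted p = 1.05e-15). In 4T1R1, 5 rose and 4 fell, and in 4T1R2, 4 rose and 1 fell. The shares of all genes that rose and fell were 18.4% and 17.9% in 4T1, 13.9% and 14.3% in 4T1R1, and 6.18% and 4.35% in 4T1R2.

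Of 20 STAT3 and STAT5 target genes, 14 were higher and 5 lower in untreated 4T1R1 (median 0.69), and 13 higher and 4 lower in 4T1R2 (median 0.84). Among all genes, 25.2% were higher and 27.5% lower in 4T1R1, and 25.6% and 26.9% in 4T1R2. Pim3, a survival kinase gene, was lower by −0.67 (SE 0.043, adjusted p = 1.01e-16) and −0.95 (SE 0.045, adjusted p = 2.98e-21). Fos, an immediate early gene, was lower by −0.99 (SE 0.14, adjusted p = 9.03e-08) in 4T1R1. In untreated 4T1R2 it went the other way, with a mean of 1299 normalized counts against 720 (SD 218) in 4T1 and 364 in 4T1R1. Pim1 and Bcl3, picked after their values were seen, were higher by 1.07 and 1.42 in 4T1R1, and by 0.97 and 0.72 in 4T1R2. Under 17-DMAG, 6 rose and 9 fell in 4T1, 5 rose and 10 fell in 4T1R1, and 2 rose and 6 fell in 4T1R2. The shares of all genes that rose and fell were 18.4% and 17.9% in 4T1, 13.9% and 14.3% in 4T1R1, and 6.18% and 4.35% in 4T1R2. The log2 response of 4T1 was −4.29 for Fos (SE 0.24, adjusted p = 1.21e-18) and −1.76 for Junb (SE 0.063, adjusted p = 3.81e-25).

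Of 36 other cytokine receptors, 19 were tested, with 8 higher and 3 lower in 4T1R1 and 6 higher and 3 lower in 4T1R2, where Ghr, the growth hormone receptor, was lower by −0.70 (SE 0.047, adjusted p = 2.52e-16). Under 17-DMAG, 2 rose and 7 fell in 4T1, 2 rose and 3 fell in 4T1R1, and 1 rose and 1 fell in 4T1R2. In 4T1R2, 0 were called without treated replicate 2 and 1 was called without untreated or treated replicate 3. The shares of all genes that rose and fell were 18.4% and 17.9% in 4T1, 13.9% and 14.3% in 4T1R1, and 6.18% and 4.35% in 4T1R2. Of 16 ligand genes, 10 were tested, with 6 higher and 1 lower in 4T1R1 and 5 higher and 2 lower in 4T1R2. Beside the receptor and ligand counts, 25.2% of all genes were higher and 27.5% lower in 4T1R1, and 25.6% and 26.9% in 4T1R2. Csf3, the granulocyte colony-stimulating factor gene, was higher by 3.26 (SE 0.043, adjusted p = 7.93e-41) and 3.22 (SE 0.043, adjusted p = 9.28e-41), and it fell by 1.77 in treated 4T1 (SE 0.075, adjusted p = 1.48e-22) and by 1.03 in treated 4T1R1 (SE 0.036, adjusted p = 5.17e-25). In treated 4T1R2 the Csf3 value was −0.096 (adjusted p = 0.0662), and without treated replicate 3 of 4T1R2 it was −0.12 (adjusted p = 0.0277).

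**Figure D5:**
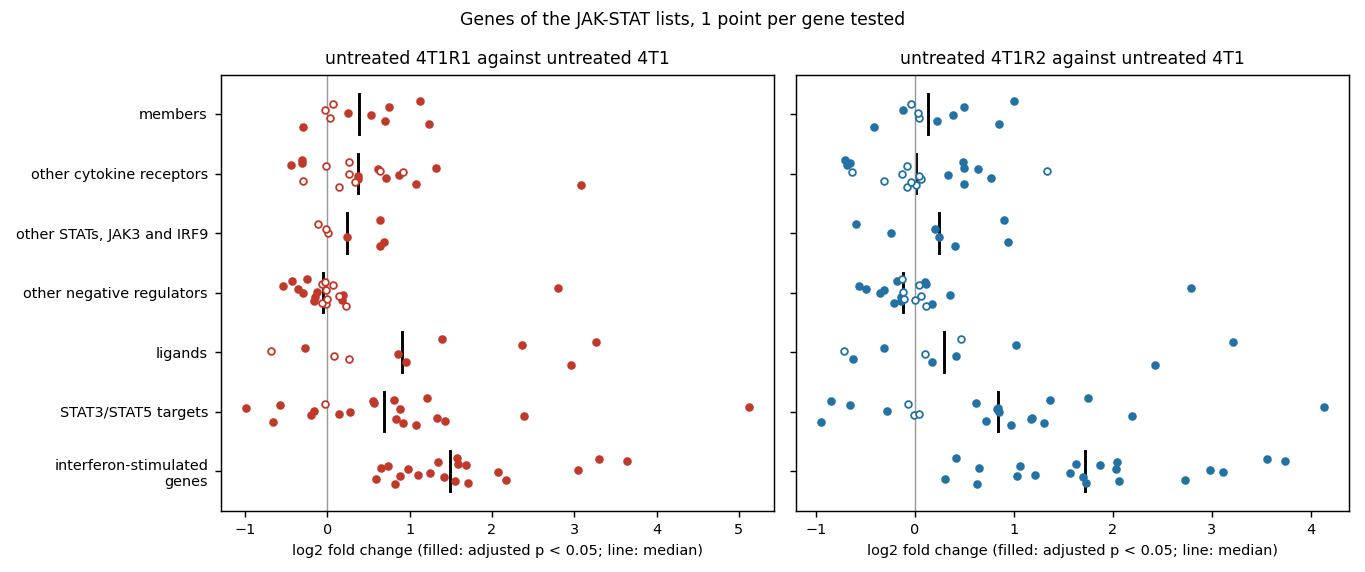
Log2 fold change of each tested gene of the JAK-STAT lists in untreated 4T1R1 (left) and 4T1R2 (right) against untreated 4T1 on the horizontal axis, with filled points for an adjusted p under 0.05 and the list median as a line. All 20 interferon-stimulated genes lie to the right of 0 in both panels, and the 20 other negative regulators have medians of −0.048 and −0.12.

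Patterns across the 6 groups were compared for Socs2, Socs3 and Ifnar2, the members with the widest range of group means. Likeness was the root mean square difference of centred log2 group means over 10630 genes, so that 0 means the same shape. Nearest to Ifnar2 were Npc2 (0.048), a lysosomal cholesterol transporter, Plk2 (0.050) and Sik2 (0.071), both kinases. Nearest to Socs3 were Mypop (0.045), 1700017B05Rik (0.059) and Ppp1r12b (0.061), and nearest to Socs2 were Parp12 (0.091), an interferon-inducible gene, Pstpip1 (0.10) and Klf4 (0.12). These are a description of 6 means with shared libraries.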

How the data were processed

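RNA of 4T1, 4T1R1 and 4T1R2 cells was depleted of ribosomal RNA and sequenced. The authors converted the runs with bcl2fastq 2.20, aligned reads with STAR to mm10 (GRCm38) and deposited raw counts per gene from featureCounts (Subread 1.6.2), and their own test was DESeq2. The STAR version, strand and multi-mapping settings are not given in the sources used here. Genes passing filterByExpr were tested with edgeR 4.0.16 (R 4.3.3) quasi-likelihood fits, TMM scaling, 1 mean per group over 17 libraries, and Benjamini-Hochberg adjustment at 0.05. The standard error (SE) printed with a log2 value is the size of that value divided by the square root of the F statistic of its quasi-likelihood test. The fit was tested on simulated data. Lengths came from GENCODE exons. Other genes were named by rule: per comparison up to 3 largest calls per direction averaging 100 or more normalized counts in the higher group, and the 3 genes most like each of the 3 widest-ranging members. The text marks genes picked later. The members and lists were chosen with earlier results of these data known. DESeq2 1.42.0, other scalings, filters, sample sets, a replicate block and leaving out each library were alternatives. The check of repeat libraries was a chi-square per gene over low counts, and counting both reads of a fragment raises it, so the 17 pairs at 2.04 to 2.22 are not shown to differ beyond sampling noise. The 1 pair at 1.1 stood apart from them. With 2 or 3 libraries per group, the p-values rest on a spread between libraries that is shared by all 6 groups and moderated across genes. The treated 4T1 group, with n = 2, borrows its precision from the others.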

Additional observations from a re-analysis of the deposited data

Results flagged for a closer look

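For 4 members the response to 17-DMAG differed between a resistant population and 4T1 by the test of that difference (edgeR). In 4T1R2 minus 4T1 the log2 difference was 0.33 for Socs3, 0.31 for Stat3, 0.18 for Il6st and 0.28 for Jak2, and in 4T1R1 minus 4T1 it was 0.23 for Jak2. In each of these the gene was called lower under 17-DMAG in 4T1. In the resistant population Il6st was called lower by less, and the other genes gave no called response, with Stat3 at 0.017 in 4T1R2 for Stat3. The treated 4T1 group, which enters each of these differences, has n = 2. The values for Stat3 and Jak2 in 4T1R2 stayed past the threshold in every alternative run, and the other 3 did not when some libraries were left out. Groups of 2 or 3 libraries are too small for a test of single outlying libraries.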

How the results depend on the processing

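Of 80 member results (10 genes in 8 comparisons), 37 were called, 28 of these under every alternative run, and 9 were lost in some, with 0 reversed. Of 43 not called, 11 gained a call in some. RLE scaling, TMM without Rn45s and 18 separate libraries changed no call of a member, and DESeq2 gained 1. Scaling by total counts put the median of all genes at 0.146 in the 4T1R1 difference in response. Of 13507 genes, it then called 3955 in that difference in place of 2464, and 1513 in the 4T1R2 response in place of 1423. Members called were 5 in place of 1 in that difference, and 3 in place of 1 in the 4T1R2 response. Without single libraries, those of treated 4T1 aside, the members called ranged from 1 to 2 in each. In these runs 13459 to 13493 genes were tested. The genes called among them ranged from 2035 to 2529 in the 4T1R1 difference and from 929 to 1360 in the 4T1R2 response. The same scaling turned values that were not called: Jak1 0.00070 and Stat3 −0.029 in the responses of 4T1R1 and 4T1R2, Socs1 0.131, Jak1 0.132 and Tyk2 0.103 in the 4T1R1 difference, and Jak1 0.034 in the 4T1R2 difference. Replicate numbers did not pair the libraries, since 1 of 35 same-numbered pairs had a correlation over 0.1 (range −0.189 to 0.167). The replicate block changed no call of a member and turned Ifnar2 in the 4T1 response to 0.0056 and Socs1 in the 4T1R1 difference to 0.012. Leaving out single libraries turned the sign of results that were not called. Against untreated 4T1, 4T1R1 gave −0.015 to 0.083 for Stat3 and −0.057 to 0.0099 for Jak2, and 4T1R2 against 4T1R1 gave −0.039 to 0.060 for Stat3. The 4T1 response ranged from −0.22 to 0.090 for Socs2, −0.041 to 0.0082 for Jak1 and −0.095 to 0.065 for Ifnar2, and the 4T1R2 response from −0.15 to 0.036 for Socs1 and −0.019 to 0.043 for Stat3. The 4T1R1 difference ranged from −0.12 to 0.058 for Socs1, −0.042 to 0.012 for Jak1 and −0.16 to 0.046 for Tyk2. Requiring at least 10 counts in every library left 4 ligand genes called in untreated 4T1R1 in place of 7. That filter takes genes with fewer counts out of the test. Of all genes, 6656 of 11684 were then called in place of 7116 of 13507. The cause of these changes was not tested. The lowest count of a member in a library was 102, for Socs2. A lone library left in treated 4T1 was assumed to vary like the other groups.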
